A study of Mus musculus with 30 samples.

Results

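The mitochondrial ribosomal protein genes are the nuclear genes that encode the protein part of the ribosome inside mitochondria. Members were the protein-coding genes whose symbol begins with Mrpl or Mrps followed by a number, with pseudogenes left out. This gave 78 genes of the 33076 in the deposited count table, of which 51 encode large subunit proteins and 26 encode small subunit proteins. The remaining one, Mrps36, keeps its ribosomal symbol but is now known as a subunit of the 2-oxoglutarate dehydrogenase complex. Low counts removed 1 member, Mrpl53, and the other 77 were tested.

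Bulk RNA-seq libraries were made from the diaphragm of 15 male mice that model SBMA (spinal and bulbar muscular atrophy). SBMA mice carried BACfxAR121 (written BACfxR121 in the genotype label), a transgene for a human androgen receptor with an expanded glutamine tract. Controls were HSA-Cre;BACfxAR121 littermates. They carried the same transgene, and a Cre recombinase driven by a skeletal muscle actin promoter rescued their muscle, so the transgene was present in other tissues of both groups. Each animal gave one perisynaptic piece of diaphragm, which held the neuromuscular junctions, and one extrasynaptic piece without them. At 15 weeks of age there were 4 SBMA and 3 control animals, and at 26 weeks 4 of each. The 30 libraries therefore fell into 8 groups, with replicates from separate animals and both regions from the same animal. Because the transgene is human and carried by both groups, no mouse gene in the table checked the genotype labels.

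Mitochondrial ribosomes translate the few messenger RNAs of mitochondrial DNA, all of which encode membrane subunits of the respiratory chain and ATP synthase. Their RNAs come from mitochondrial DNA, whereas every one of their proteins is made in the cytosol and imported. Many of these proteins descend from bacterial ribosomal proteins and others were added during the evolution of mitochondria. Skeletal muscle depends heavily on this supply, and inherited defects of several of these proteins cause failure of oxidative phosphorylation in people.

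By kinship, 46 of the ribosomal members have a bacterial homologue (30 large subunit and 16 small subunit) and 31 are specific to mitochondria (21 and 10). The large subunit class includes Mrps30 and Mrps18a, whose symbols date from a time when they were assigned to the small subunit. The genes lie on 17 chromosomes, with 11 on chromosome 11 and 8 on chromosome 17 as the largest groups. Exons of 33 members share bases with another gene. The strand setting of the counting is not given in the sources used here, so reads from overlapping genes on opposite strands could not be told apart with certainty. In 3 members less than 50% of the exon bases were free of another gene: Mrpl53 (12.03%), Mrps34 (22.2%) and Mrps25 (30.2%).

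Promoter sequence was available for 69 of the 78 members, as windows of 300 bases from RefSeq (GRCm38.p6) that run from 250 bases before the annotated start of the gene into its first 50 bases. Motifs of 3 factors that are known to act on nuclear genes for mitochondrial proteins were searched on both strands. These were the NRF1 motif (GCGC, any base, then TGCGC), the ETS motif CCGGAAG bound by GABPA, and the YY1 motif (AA, any base, then ATGG followed by CGGC). A window was counted once per motif, whichever strand matched, and a window with several motifs was counted under each. The NRF1 motif was in 13 member windows (18.8%) and in 6.6% of the 17492 windows of all protein-coding genes. The ETS motif was in 24 (34.8%) against 11.9% of all, and the YY1 motif in 7 (10.1%) against 1.49%. At least one of these was in 37 of the 69 members. The CCAAT box was in 39.1% of members and 39.0% of all genes, TATAAA in 5.8% and 13.3%, and the E-box CACGTG in 7.25% and 7.9%. The median GC content of the member windows was 58.3%, against 56.3% for all. A match is a description of letters and does not show that a factor binds.

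Of the members lower in SBMA muscle of both regions at 26 weeks, 11 had a window. Among these the NRF1 motif was in 2, ETS in 2 and YY1 in 4, and Mrpl1 had no match. Windows of 4 of these members are shown. All 4 hold a match, so they do not stand for the rest. Between them, but not each alone, these 4 windows hold the 3 motifs. They are written 5′ to 3′ on the strand of the gene, with motif matches in capitals, and positions count from the annotated start at +1. The Mrpl14 window (chr17:45686099-45686398, plus strand) holds an NRF1 match at +5. The Mrpl45 window (chr11:97315466-97315765, plus strand) holds NRF1 matches at -120, -38 and +16. The Mrpl35 window (chr6:71823735-71824034, minus strand) holds a YY1 match at +24. The Mrps27 window (chr13:99344536-99344835, plus strand) holds an ETS match at -48 and a YY1 match at +15.
Mrpl14: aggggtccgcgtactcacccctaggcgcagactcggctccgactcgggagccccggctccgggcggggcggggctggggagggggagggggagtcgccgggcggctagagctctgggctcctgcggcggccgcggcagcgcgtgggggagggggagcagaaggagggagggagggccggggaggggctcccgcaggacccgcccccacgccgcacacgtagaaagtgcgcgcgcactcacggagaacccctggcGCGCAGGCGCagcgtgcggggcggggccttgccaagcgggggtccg
Mrpl45: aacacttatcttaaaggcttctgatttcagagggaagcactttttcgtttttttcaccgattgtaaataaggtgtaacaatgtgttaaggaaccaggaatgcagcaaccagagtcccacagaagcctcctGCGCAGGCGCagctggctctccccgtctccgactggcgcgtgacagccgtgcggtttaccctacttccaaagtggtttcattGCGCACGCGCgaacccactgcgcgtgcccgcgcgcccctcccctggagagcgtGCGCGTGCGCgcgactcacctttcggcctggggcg
Mrpl35: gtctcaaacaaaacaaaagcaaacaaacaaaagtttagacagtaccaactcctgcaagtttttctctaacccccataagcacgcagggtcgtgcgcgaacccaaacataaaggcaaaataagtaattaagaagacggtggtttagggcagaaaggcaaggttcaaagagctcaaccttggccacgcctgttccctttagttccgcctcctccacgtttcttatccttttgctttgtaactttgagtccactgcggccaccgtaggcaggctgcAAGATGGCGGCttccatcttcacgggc
Mrps27: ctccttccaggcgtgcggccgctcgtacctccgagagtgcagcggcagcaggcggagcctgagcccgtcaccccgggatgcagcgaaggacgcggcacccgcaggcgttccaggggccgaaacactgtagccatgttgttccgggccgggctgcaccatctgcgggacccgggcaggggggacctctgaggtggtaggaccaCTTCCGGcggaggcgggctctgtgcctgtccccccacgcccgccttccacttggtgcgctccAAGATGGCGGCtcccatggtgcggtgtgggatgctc

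Levels (CPM) were counts relative to the TMM-scaled library size, and they were set side by side between genes only per kilobase of exon. On that scale the median member had 16.5 CPM per kb. The members with the highest means were Mrpl34 at 99.3, Mrpl12 at 94.0 and Mrpl14 at 87.5 CPM per kb. The lowest were Mrpl53 at 0.066, Mrpl23 at 0.513 and Mrps10 at 2.02 CPM per kb. Mrpl53 had 0 to 5 counts per library and 38 in all, and most of its exon bases lie inside the same-strand gene Gm42688. Reads of near-identical processed copies could split the counts of some members. The annotated pseudogene Mrpl48-ps held 126 counts over all libraries against 26297 for Mrpl48, Mrpl23-ps1 held 69 against 1867 for Mrpl23, and the 3 Mrps36 pseudogenes held 1 to 10 counts against 3731 for Mrps36.

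Total counts per library ranged from 16280873 to 34694446. One library stood apart in its members. Control perisynaptic replicate 2 at 26 weeks had a summed level of 5292 CPM over the 78 genes, against 3789 to 4132 CPM in the other 3 control libraries of that group. In this library the median member lay 0.48 above its mean over all libraries on the log2 scale. The extrasynaptic piece of the same animal also had the highest sum of its group, 4595 CPM against 3818 to 4182 CPM. Perisynaptic SBMA libraries at 26 weeks also differed among themselves, with 3849 and 3908 CPM in replicates 1 and 2 and 3408 and 3261 CPM in replicates 3 and 4. The library names carry animal numbers, and at 26 weeks replicates 1 and 2 of both genotypes form one run of consecutive numbers and replicates 3 and 4 another. Within-run values are given beside the 26-week results for this reason.

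**Figure D1:**
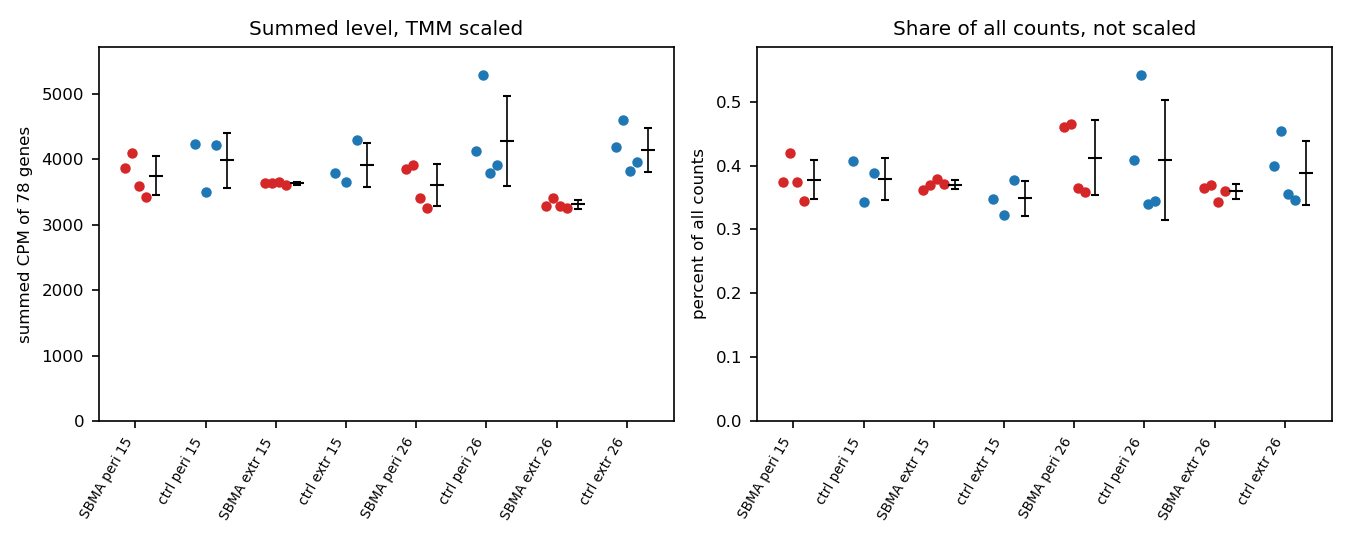
Summed level of the 78 genes in each library (points) with mean and SD (bars), on the left as TMM-scaled CPM and on the right as a percent of all counts without scaling. On the left the 4 extrasynaptic SBMA libraries at 26 weeks lie between 3259 and 3413 CPM, below all 4 controls; on the right SBMA and control libraries overlap.

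The first question was whether muscle of SBMA mice differs from rescued muscle in these genes away from the junctions at 26 weeks. In extrasynaptic muscle, 51 of the 77 tested members were lower in SBMA mice and none was higher. Among all 15526 genes tested, 16.1% were lower and 16.1% higher. Calls are Benjamini-Hochberg adjusted p-values under 0.05 over all genes in edgeR's quasi-likelihood test. The median log2 fold change of the members was -0.29, against -0.03 for all genes, and 71 of 77 members lay below 0. Of the falls, 10 were larger than 0.5 on the log2 scale, 28 lay between 0.3 and 0.5 and 13 were smaller. In 48 members every SBMA library lay below every control library, which held for 14.6% of all genes.

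These are changes relative to the typical gene, and the choice of scaling sets where 0 lies. When libraries were scaled by total counts alone, the median of all genes lay at 0.18 and the members' median at -0.08, so the distance between them was -0.27 there and -0.26 with TMM. With total counts alone 15 members were called lower and 2 higher, a smaller share than the 40.5% of all genes called, and 48 of the 51 kept their direction; Mrpl32, Mrpl49 and Mrps7 did not. Over all genes the share of calls that were higher was 49.97% with TMM and 84.8% with total counts alone. Without scaling, the members took 0.360% ± 0.0117 of all counts in extrasynaptic SBMA libraries and 0.388% ± 0.0497 in controls (SD, n = 4 each), and these ranges overlapped.

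Mrpl14 showed the largest fall of the members tested in extrasynaptic SBMA muscle. It encodes the homologue of bacterial L14, a protein at the face where the subunits meet (ENSMUSG00000023939.7, GRCm38 chromosome 17, 45686322 to 45698495). Its level was 53.3, 55.6, 56.2 and 63.3 CPM in the SBMA libraries, against 107, 115, 88.0 and 95.8 CPM in the controls. All 4 SBMA libraries lay well below all 4 controls. This is a fall by 43.7%, or -0.83 ± 0.11 (SE) on the log2 scale, with an adjusted p of 3.67e-05. Within the runs of animal numbers it was -1.03 and -0.62, and both were called. Of its exon bases 88.8% were free of another gene, and the rest overlapped Tmem63b on the opposite strand.

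Mrpl18 encodes the homologue of bacterial L18 (chromosome 17, 12911349 to 12916345). It had 79.4, 82.5, 76.4 and 78.3 CPM in SBMA libraries, against 126, 132, 109 and 120 CPM in controls, with a log2 fold change of -0.62 ± 0.07 and an adjusted p of 9.57e-06. The SBMA values lay close together and none came near a control. Mrps28, a small subunit protein related to bacterial S1 (chromosome 3, 8802146 to 8923918), had 33.0, 37.7, 33.3 and 34.4 CPM in SBMA libraries, against 56.9, 59.0, 48.1 and 48.5 CPM in controls. It fell by 0.62 on the log2 scale (SE 0.08, adjusted p = 7.04e-05), again without overlap.

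Mrpl45 encodes a protein beside the exit of the tunnel through which new chains leave, and it ties the ribosome to the inner membrane (chromosome 11, 97315716 to 97329920). It had 54.8, 57.8, 50.6 and 53.7 CPM in SBMA libraries, against 78.8, 91.2, 72.2 and 82.7 CPM in controls (log2 fold change -0.58 ± 0.08, adjusted p = 7.89e-05). Mrpl1, the protein of the stalk beside the tRNA exit site (chromosome 5, 96209493 to 96266727), had 28.3, 31.1, 27.7 and 28.9 CPM in SBMA libraries, against 39.4, 42.0, 42.1 and 43.4 CPM in controls. The groups did not overlap in either gene, and Mrpl1 fell by 0.52 ± 0.06 on the log2 scale (adjusted p = 1.18e-05). Mrpl12, the stalk protein that contacts translation factors, averaged 114 ± 1.40 CPM in SBMA libraries and 168 ± 24.5 CPM in controls (SD, n = 4 each), with a log2 fold change of -0.56 ± 0.09 and an adjusted p of 0.000327.

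Other falls over 0.5 on the log2 scale were those of Mrps18b (-0.56), Mrpl38 (-0.55), Mrps11 (-0.55) and Mrps18a (-0.53), all with adjusted p-values of at most 0.000754. Several called members have a known role beyond the ribosome's core. Mrpl58, a peptidyl-tRNA hydrolase that rescues stalled ribosomes, changed by -0.35 (adjusted p = 0.00954), and Mrpl44, which resembles RNase III, by -0.38 (0.00103). Mrps36, which is not a ribosomal protein, changed by -0.45 (0.0301) from a low level of 3.94 to 4.26 CPM in SBMA libraries, against 4.82 to 6.39 CPM in controls. Small falls that passed the test were those of Mrpl3 (-0.29, adjusted p = 0.00204), Mrps14 (-0.29, 0.00476), Mrps16 (-0.35, 0.00835), Mrpl11 (-0.25, 0.0437) and Mrps7 (-0.21, 0.0362), although that of Mrps7 turned with total-count scaling.

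The 26 members that were not called ran from a log2 fold change of -0.27 for Mrps6 (adjusted p = 0.0750) to 0.16 for Mrps12 (0.156). Mrps12 encodes the homologue of bacterial S12 at the decoding site. It averaged 37.99 ± 1.38 CPM in SBMA libraries and 34.0 ± 3.43 CPM in controls, and the ranges of 37.1 to 40.1 and 31.3 to 39.0 CPM overlapped. Mrps18c, which lies close to 0 at 0.04, has both its paralogues, Mrps18a and Mrps18b, among the falls over 0.5. Mrpl57 (0.08), Mrps34 (0.05), Mrps22 (-0.07), Mrpl24 (-0.04) and Mrps2 (-0.16) were likewise not called. Of these, Mrps34 has few exon bases of its own.

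Both subunits and both classes of origin held similar shares of lower members. In extrasynaptic muscle at 26 weeks 33 of 50 large subunit members were lower, with a median log2 fold change of -0.29, and 17 of 26 small subunit members, with a median of -0.30. Among members with a bacterial homologue 30 of 46 were lower (median -0.29), and among those specific to mitochondria 20 of 30 (median -0.32). The share of promoters with an NRF1 match was 19.6% of the 46 lower members with a window and 18.2% of the 22 that were not called. For the ETS motif these shares were 30.4% and 40.9%, and for the YY1 motif 13.0% and 4.55%, or 6 and 1 members. Among the 11 of the 13 perisynaptic falls with a window, NRF1 was in 2, ETS in 2 (18.2% each) and YY1 in 4 (36.4%). These shares are given without a test.

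**Figure D2:**
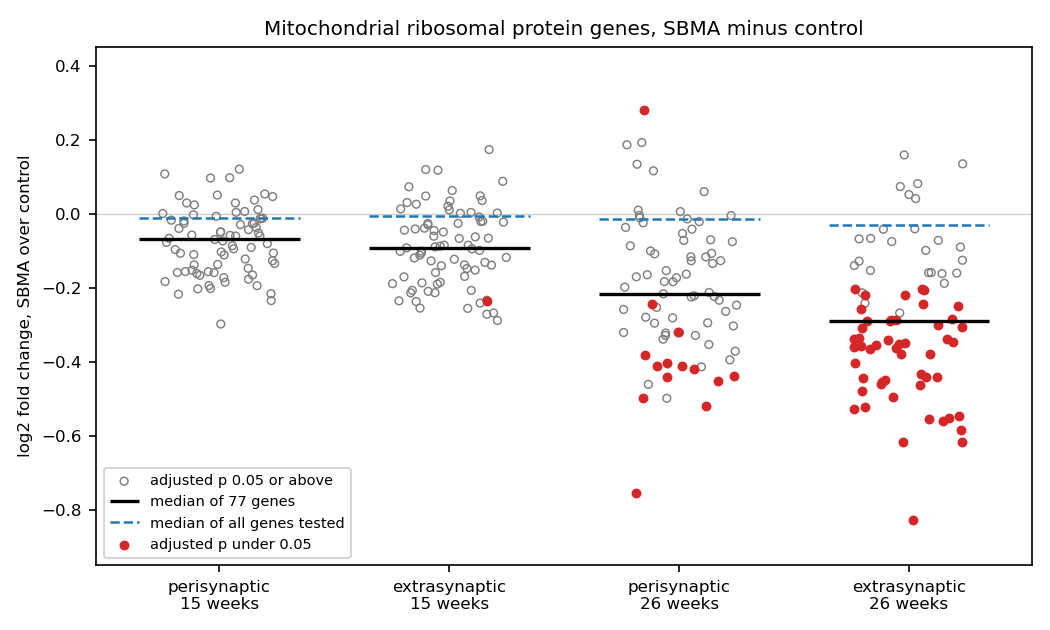
Log2 fold change of SBMA over control for each of the 77 tested genes (points) in each region and age, with filled points for adjusted p under 0.05 in edgeR. The members' median (solid line) lies below that of all genes (dashed line) in all 4 comparisons, at -0.29 against -0.03 in extrasynaptic muscle at 26 weeks; with total-count scaling the members' median rises above 0 in the other 3 but stays below that of all genes.

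Perisynaptic muscle at 26 weeks showed fewer changed members. There 13 of 77 were lower and 1, Mrpl10, was higher, while 5.97% of all 15735 genes tested were lower and 8.04% higher. The median log2 fold change was -0.22, against -0.02 for all genes, and 69 members lay below 0 with TMM scaling; with total counts alone the members' median turned to 0.04 and that of all genes was 0.24, a distance of -0.20 in both cases. In that scaling 2 members were higher and none lower, against 29.5% of all genes called, and 91.8% of all calls were higher, against 57.4% with TMM. In 24 members every SBMA library lay below every control library, compared with 8.63% of all genes. The members' median SE was 0.12 here and 0.08 in extrasynaptic muscle.

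The 13 genes were Mrpl1, Mrpl14, Mrpl18, Mrpl35, Mrpl38, Mrpl42, Mrpl45, Mrpl47, Mrps5, Mrps11, Mrps27, Mrps28 and Mrps30. All 13 were also lower in extrasynaptic muscle, so they made up 100% of the perisynaptic falls and 25.5% of the extrasynaptic ones. They include 9 large subunit and 4 small subunit proteins. Both regions came from the same animals, so the lists are not independent.

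Mrpl14 again had the largest fall. Its perisynaptic levels were 74.6, 72.8, 64.2 and 60.8 CPM in SBMA libraries, against 104, 171, 91.9 and 95.9 CPM in controls. The value of 171 CPM belongs to control replicate 2, and the other 3 controls still lay above every SBMA library. The log2 fold change was -0.75 ± 0.19 with an adjusted p of 0.0137, and without that control animal it was -0.50 with an adjusted p of 0.0188. Mrpl18 had 88.1, 91.5, 81.1 and 72.9 CPM in SBMA libraries, against 119, 147, 106 and 110 CPM in controls. None of these SBMA values reached a control value, and the change was -0.52 ± 0.12 on the log2 scale (adjusted p = 0.00849).

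The smallest adjusted p of a member here was that of Mrpl35, the homologue of bacterial L35 (chromosome 6, 71812997 to 71826969). It had 32.2, 34.2, 32.5 and 32.6 CPM in SBMA libraries, against 43.7, 46.6, 43.9 and 45.6 CPM in controls. Neither group spread by more than a few CPM and they lay far apart, with a log2 fold change of -0.44 ± 0.09 and an adjusted p of 0.00367. Its extrasynaptic levels were close to these, at 33.9 ± 1.44 CPM in SBMA libraries and 45.9 ± 1.65 CPM in controls (SD, n = 4 each). Mrps5, a homologue of bacterial S5, averaged 27.0 ± 0.921 CPM in SBMA libraries and 36.1 ± 4.11 CPM in controls (SD, n = 4 each; log2 fold change -0.41 ± 0.09, adjusted p = 0.00623).

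Mrpl47, the homologue of bacterial L29 at the tunnel exit, changed by -0.45 ± 0.11 (adjusted p = 0.0102) and Mrpl38 by -0.44 ± 0.10 (0.00832). Mrpl1 changed by -0.41 ± 0.09 (0.00964), from levels of 27.2, 30.3, 29.4 and 32.9 CPM in SBMA libraries, against 41.5, 34.7, 42.6 and 40.7 CPM in controls. Mrps28 (-0.50, adjusted p = 0.0294) and Mrpl45 (-0.42, 0.0299) were also lower. Without control replicate 2 the log2 fold change of Mrps28 was -0.33. Mrps28 had 44.2, 46.3, 38.1 and 36.7 CPM in SBMA libraries, against 57.6, 79.0, 51.2 and 47.5 CPM in controls, so the groups did not overlap but came within a few CPM of each other. Mrps27, an RNA-binding pentatricopeptide repeat protein, had 29.8, 31.9, 31.4 and 32.9 CPM in SBMA libraries, against 37.9, 40.3, 39.5 and 40.7 CPM in controls (-0.32 ± 0.09, adjusted p = 0.0214). Mrps30 changed least, by -0.25 ± 0.08 (adjusted p = 0.0450), and its direction turned with total-count scaling. Mrpl42 (-0.38, 0.0241) and Mrps11 (-0.41, 0.0365) complete the list.

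Mrpl10 was the one member that rose. It encodes the base of the flexible stalk of the large subunit, on which Mrpl12 sits (chromosome 11, 97041560 to 97049213). Perisynaptic levels were 59.1, 55.8, 57.4 and 55.7 CPM in SBMA libraries, against 48.5, 47.3, 47.6 and 45.7 CPM in controls, without overlap. The log2 fold change was 0.28 ± 0.08 with an adjusted p of 0.0368, but the call was lost in 8 of 15 fits that left out one animal, where the adjusted p reached 0.0865. These were the fits without SBMA replicate 4 of 15 weeks, any SBMA animal of 26 weeks, or control replicates 1, 3 or 4 of 26 weeks. It was also lost with the replicate number as a block (0.0798), without the filter (0.143), with only the groups compared (0.0696) and within either run (0.204 in both). In extrasynaptic muscle Mrpl10 had 54.9, 54.3, 58.3 and 54.2 CPM in SBMA libraries, against 54.3, 52.8, 46.5 and 48.5 CPM in controls. The groups overlapped there and the log2 fold change of 0.13 was not called (adjusted p = 0.143).

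Of the 13 perisynaptic falls, 7 were called in every one of the 15 fits that left out one animal: Mrpl1, Mrpl14, Mrpl18, Mrpl35, Mrpl38, Mrpl47 and Mrps5. All animals named next were 26 weeks old. The call of Mrps27 was lost without SBMA replicates 1 or 3 (adjusted p up to 0.0630), and those of Mrpl42 (up to 0.0756) and Mrps28 (up to 0.0872) without SBMA replicates 3 or 4 or control replicate 1. Those of Mrpl45 (up to 0.0792) and Mrps11 (up to 0.101) were lost without SBMA replicates 1, 3 or 4 or control replicates 1 or 2. Mrps30 kept its call in 2 of the 15 fits, those without SBMA replicate 4 of 15 weeks or control replicate 2 of 26 weeks, and its adjusted p reached 0.135 in the others.

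The count of called members was 9 without SBMA replicate 1 of 26 weeks, 7 without SBMA replicate 3, 8 without SBMA replicate 4 and 8 without control replicate 1. In these fits 10.8%, 10.2%, 10.8% and 10.9% of all genes were called in either direction, so the members' share of calls was close to that of all genes, although all of the members called were lower. Without control replicate 2, the library that stood apart, 11 were lower and 2 higher, and in extrasynaptic muscle 40 were lower and 1 higher. The share of all genes called without that animal is not given here, so these counts are not set against all genes. Within the first run of animal numbers 5 perisynaptic members were called lower and within the second none, each with 2 animals a genotype. Of all genes 7.04% and 5.07% were called in the runs in either direction, so the number of members called did not exceed the share of all genes there. All 13 kept their direction in both. The members' perisynaptic median was -0.23 and -0.20 in the runs. In extrasynaptic muscle 46 and 19 members were called within the runs, where 25.9% and 13.6% of all genes were, with medians of -0.36 and -0.22. Of the 51 extrasynaptic falls, 40 were called in all 15 fits that left out one animal, and all 51 kept their direction in both runs. The other 11 were Mrpl11, Mrpl21, Mrpl28, Mrpl32, Mrpl33, Mrpl36, Mrpl43, Mrpl49, Mrps7, Mrps33 and Mrps36, whose highest adjusted p over these fits ran from 0.0534 for Mrpl32 to 0.136 for Mrpl43.

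**Figure D3:**
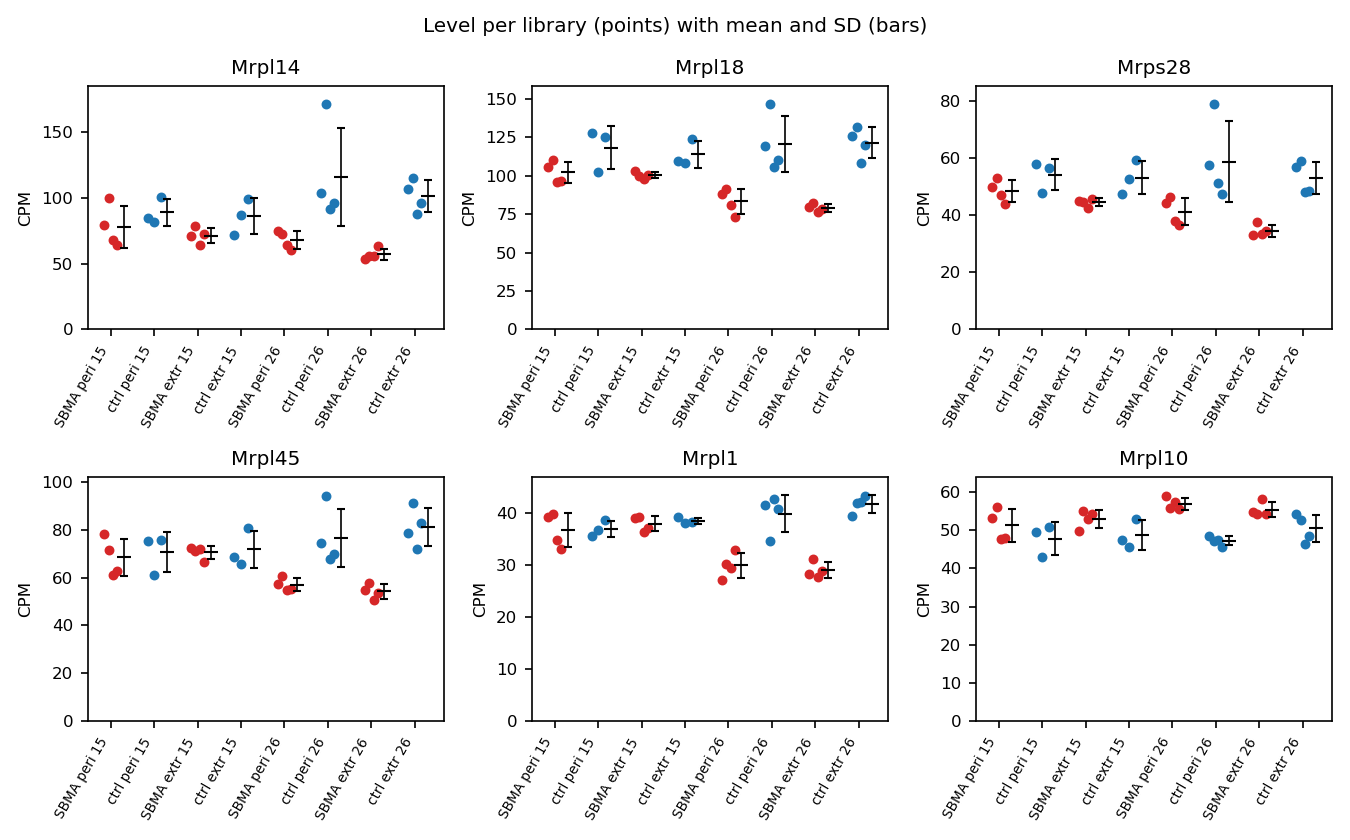
CPM per library (points) with mean and SD (bars) for 6 members in the 8 groups, where peri and extr stand for the regions and 15 and 26 for weeks. SBMA libraries at 26 weeks lie below the controls in Mrpl14, Mrpl18, Mrps28, Mrpl45 and Mrpl1, while Mrpl10 was higher in perisynaptic SBMA libraries, at 55.7 to 59.1 CPM against 45.7 to 48.5 CPM.

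At 15 weeks the members showed little difference that passed the test. In perisynaptic muscle no member was called by edgeR, none had an unadjusted p under 0.05 and DESeq2 called none, while 0.21% of all genes were called. The members' log2 fold changes ran from -0.30 to 0.12, and the smallest adjusted p was 0.731 for Mrpl38 (-0.22 ± 0.11). Mrps33 (-0.30), Mrpl9 (-0.17), Mrpl18 (-0.22), Mrps30 (-0.14) and Mrpl44 (-0.15) followed, with adjusted p-values of 0.744 to 0.864. The median was -0.07 against -0.01 for all genes, and with total counts alone it turned to 0.01 against 0.07.

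In extrasynaptic muscle at 15 weeks 1 member, Mrpl9, was lower and none was higher, where 0.67% of all genes were lower and 0.554% higher. Mrpl9, the homologue of bacterial L9, had 61.4, 61.0, 61.2 and 61.0 CPM in SBMA libraries, against 70.5, 71.8 and 73.6 CPM in controls. The log2 fold change was -0.24 ± 0.05 with an adjusted p of 0.0460, and the groups lay clearly apart. The call was kept in 2 of the 15 fits that left out one animal, those without control replicate 2 or 4 of 26 weeks. In the other 13 it was lost (adjusted p up to 0.159), with the log2 fold change between -0.25 and -0.22 in all 15. At this age 16 of 77 members had an unadjusted p under 0.05, against 2237 of 15526 genes, and DESeq2 called 2 members and 3.15% of all genes. The members' median was -0.09 with TMM scaling but 0.10 with total counts alone, where all genes had 0.19. Mrps5 (-0.27, adjusted p = 0.0602), Mrpl38 (-0.24, 0.150), Mrpl30 (-0.21, 0.151), Mrps30 (-0.19, 0.168) and Mrps26 (-0.29, 0.190) had the next smallest p-values. In 17 of 77 members all SBMA libraries lay below all controls, against 7.69% of all genes.

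**Figure D4:**
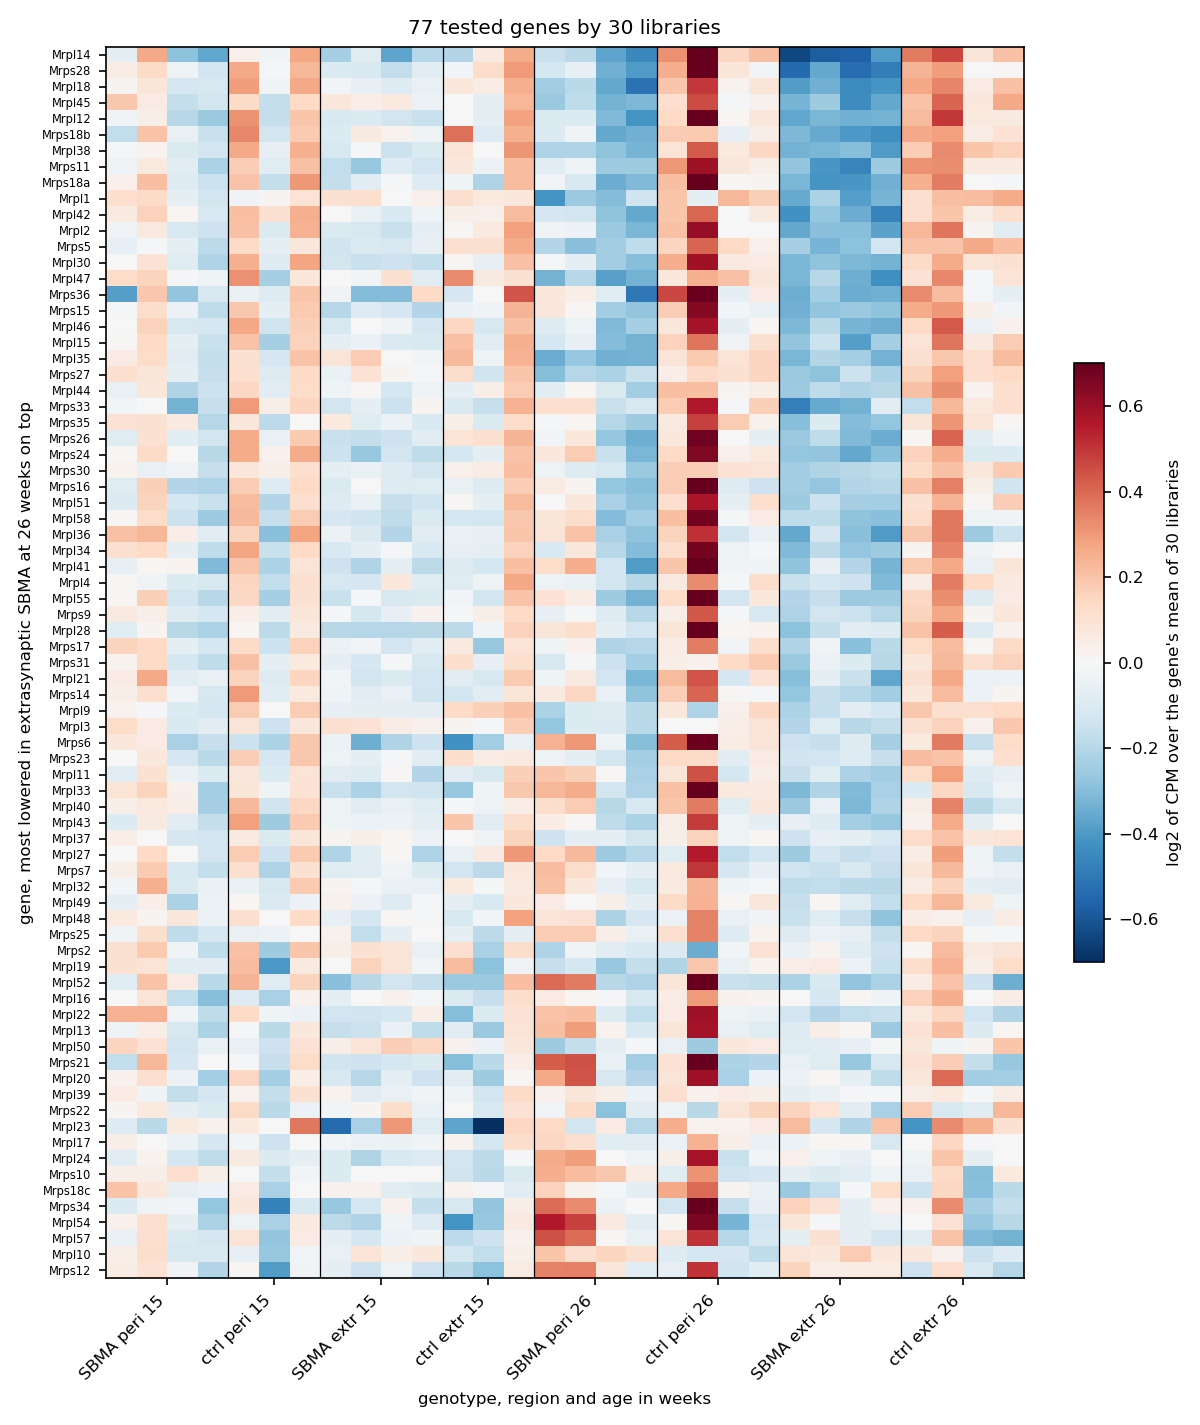
Log2 of CPM over the gene's mean of all 30 libraries (colour) for the 77 tested genes in rows, ordered by their log2 fold change in extrasynaptic muscle at 26 weeks, with libraries in columns grouped by genotype, region and age. The 4 extrasynaptic SBMA columns at 26 weeks are blue from Mrpl14 down through most rows, and control perisynaptic replicate 2 at 26 weeks is red in most rows.

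Whether the difference between genotypes depends on age was tested in the same fits. In extrasynaptic muscle 3 members had a lower value of SBMA over control at 26 than at 15 weeks and none a higher one, where 0.715% of all genes were lower and 1.01% higher. These were Mrpl1 (-0.50 ± 0.09, adjusted p = 0.00867), Mrpl45 (-0.56 ± 0.12, 0.0260) and Mrpl18 (-0.43 ± 0.10, 0.0382). At 15 weeks Mrpl1 had 39.1, 39.3, 36.3 and 37.2 CPM in SBMA libraries, against 39.2, 38.02 and 38.2 CPM in controls, and the groups overlapped. Mrpl45 had 72.6, 71.1, 72.2 and 66.7 CPM in SBMA libraries at 15 weeks, against 68.9, 65.9 and 80.8 CPM in controls, also with overlap. Mrpl18 had 103, 99.9, 97.8 and 100.4 CPM in SBMA libraries, against 110, 108 and 124 CPM in controls. Its SBMA libraries lay below the controls at 15 weeks, but that difference was not called (-0.19, adjusted p = 0.2445).

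The call of Mrpl1 was kept in all 15 fits that left out one animal, that of Mrpl45 in 9 (adjusted p up to 0.0788) and that of Mrpl18 in 5 (up to 0.101). With the replicate number as a block all 3 calls were lost (adjusted p = 0.108 for Mrpl1, 0.0835 for Mrpl45 and 0.152 for Mrpl18). Total-count scaling lost those of Mrpl45 (0.0571) and Mrpl18 (0.0891). Fits without SBMA replicates 1 or 2 or control replicates 1 or 2 of 15 weeks, or without SBMA replicates 1 or 3 of 26 weeks, called 1 member each. In these fits 0.756% to 1.17% of all genes were called in either direction. The fit without control replicate 3 of 15 weeks called 6 members, all lower, and 1.64% of all genes. For Mrpl14 the difference between ages was -0.56 and was not called (adjusted p = 0.0840). The median over the members was -0.21, against -0.01 for all genes. In perisynaptic muscle no member was called by edgeR or DESeq2 (0.375% of all genes were called), 3 had an unadjusted p under 0.05, and the smallest adjusted p was 0.369 for Mrpl1.

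Set against 15 weeks within one genotype, 11 members were lower at 26 weeks in extrasynaptic SBMA muscle and none was higher, where 5.62% of all genes were lower and 6.52% higher. The median was -0.12 against -0.01 for all genes. These 11 were Mrpl1, Mrpl3, Mrpl18, Mrpl35, Mrpl38, Mrpl42, Mrpl45, Mrpl47, Mrps18b, Mrps27 and Mrps28, and all 11 were also lower than in controls at 26 weeks, a comparison that shares the 26-week SBMA libraries. Mrpl1 averaged 29.0 ± 1.49 CPM at 26 weeks and 37.97 ± 1.44 CPM at 15 weeks (SD, n = 4 each), with a log2 fold change of -0.39 and an adjusted p of 0.000643. Next came Mrpl45 (-0.38, adjusted p = 0.00662), Mrps28 (-0.37, 0.0108), Mrps18b (-0.37, 0.0192) and Mrpl18 (-0.34, 0.00414). The count was 7 without SBMA replicate 1 or 2 of 15 weeks or SBMA replicate 1 of 26 weeks, and 6 without SBMA replicate 3 of 26 weeks, while 7.03%, 7.4%, 8.1% and 7.33% of all genes were called in either direction, a share close to that of the members. Calls lost in some of these fits were those of Mrpl3 (adjusted p up to 0.0665), Mrpl38 (0.103), Mrpl47 (0.0615), Mrps18b (0.0588) and Mrps27 (0.121).

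In extrasynaptic controls edgeR called no member, and in fact none of the 15526 genes (0.0%), between the ages. There 2 members had an unadjusted p under 0.05, DESeq2 called none, and the members' median was 0.07. Perisynaptic controls likewise had no called member (0.0% of all genes), 1 with an unadjusted p under 0.05, none by DESeq2 and a median of 0.10. In perisynaptic SBMA muscle edgeR called no member, against 3.95% of all genes; 6 had an unadjusted p under 0.05, DESeq2 called 2 and the median was -0.04. The smallest adjusted p there was 0.0773 for Mrpl47 (-0.36 ± 0.11). The 15-week control group had 3 animals, which limits what these age comparisons can detect. The ages also came from different runs of animal numbers, so a difference between ages cannot be told from one between runs.

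Perisynaptic and extrasynaptic pieces of the same animals were then compared. No member was called between the regions in any of the 4 genotype and age groups by edgeR, where 0.948% of all genes were called in SBMA and 1.16% in control muscle at 15 weeks, and 2.07% and 1.18% at 26 weeks. In SBMA muscle at 26 weeks 29 of 77 members had an unadjusted p under 0.05, against 3847 of all 16138 genes. DESeq2 called 1 member and 2.76% of all genes. The median was 0.12 against 0.00 for all genes, with 69 of 77 members above 0. The smallest adjusted p was 0.0625 for Mrps10, which had 19.5, 19.0, 18.6 and 17.0 CPM in perisynaptic pieces, against 15.6, 15.3, 15.5 and 15.9 CPM in the extrasynaptic pieces of the same SBMA animals. Its perisynaptic level was higher in 4 of 4 animals, by 0.25 ± 0.07 on the log2 scale. The number called was 10 without SBMA replicate 4 of 26 weeks, 3 without control replicate 2 and 1 without control replicate 4, but 9.91%, 7.75% and 1.77% of all genes were called in these fits. The share of members called was thus somewhat above that of all genes in the first of these fits and below it in the others. All 10 members called in the first were higher, while the shares of all genes count both directions.

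In controls at 26 weeks the median region difference was 0.05 and 7 members had an unadjusted p under 0.05, and at 15 weeks the medians were 0.06 in SBMA and 0.01 in control muscle with 1 such member each. DESeq2 called none in these 3 groups. The test of whether the region difference itself depends on genotype called no member with either tool, at 15 weeks (0.0% of all genes) or at 26 weeks (0.0124%), and 0 and 2 members had an unadjusted p under 0.05. The larger number of calls in extrasynaptic than in perisynaptic muscle at 26 weeks is therefore not shown to be a difference between the regions. The members' median of this interaction at 26 weeks was 0.08, against 0.01 for all genes, and the members' median SE was 0.10. A value above 0 stands for a smaller fall of SBMA against control in the perisynaptic pieces, but the median itself was not tested.

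Genes that work with the mitochondrial ribosome were described from lists written with earlier results of these data known. The background of all genes at 26 weeks was 5.97% lower and 8.04% higher in perisynaptic muscle, and 16.1% each way in extrasynaptic muscle. Fits that left out one animal are given for the members alone. Of the 5 mitoribosomal proteins with other symbols, none was lower in perisynaptic SBMA muscle by edgeR or DESeq2 and 1 had an unadjusted p under 0.05. In extrasynaptic muscle 3 were lower: Gadd45gip1 (-0.38, adjusted p = 0.00968), Ptcd3 (-0.32, 0.00559) and Chchd1 (-0.26, 0.0251). Factors for ribosome assembly and rRNA modification numbered 26, of which 5 were lower in perisynaptic and 12 in extrasynaptic SBMA muscle, and none was higher. Mrm1, a methyltransferase of the large rRNA, changed by -0.70 (adjusted p = 0.00631) in perisynaptic and by -0.71 (0.00255) in extrasynaptic muscle. Mettl17, an assembly factor of the small subunit, changed by -0.48 (0.00540) and -0.50 (0.000793).

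Of 15 mitochondrial translation factors, 1 was lower in perisynaptic and 10 in extrasynaptic SBMA muscle. Tufm, the elongation factor that brings tRNAs to the ribosome, changed by -0.40 (adjusted p = 0.0281) in perisynaptic and -0.37 (0.0313) in extrasynaptic muscle. Lrpprc, which stabilises mitochondrial messenger RNAs, changed by -0.25 (0.0287) in extrasynaptic muscle. Extrasynaptic SBMA and control ranges overlapped for Tufm (12.2 to 14.8 against 14.1 to 21.5 CPM) and Lrpprc (156 to 164 against 161 to 212 CPM). Among 17 mitochondrial aminoacyl-tRNA synthetases, 3 were lower in perisynaptic muscle and 6 in extrasynaptic muscle, where Iars2 was higher (0.23, adjusted p = 0.0214). Yars2, the tyrosine enzyme, changed by -0.35 (0.0211) and -0.48 (0.000339). Of 12 tested genes for transcription and replication of mitochondrial DNA, none was lower in perisynaptic muscle by edgeR or DESeq2 and 2 had an unadjusted p under 0.05. Elac2, which trims the 3′ ends of tRNAs, was higher (0.29, adjusted p = 0.0304). In extrasynaptic muscle 3 were lower, including the DNA-packaging transcription factor Tfam (-0.22, 0.0217), and Elac2 was higher (0.24, 0.0472). Tfam levels overlapped there, at 40.9 to 46.5 CPM in SBMA libraries against 45.6 to 53.8 CPM in controls.

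Regulators of mitochondrial biogenesis did not move one way. Of 11 genes, 2 were lower in perisynaptic muscle, and in extrasynaptic muscle 3 were lower and 1 was higher. Nrf1, which encodes the factor named for the NRF1 motif, changed by -0.29 (adjusted p = 0.0323) in perisynaptic and -0.25 (0.0175) in extrasynaptic SBMA muscle. The coactivator gene Ppargc1b changed by -1.08 (0.000676) and -0.78 (0.00904). Gabpa, whose protein binds the ETS motif, was higher in extrasynaptic muscle (0.28, adjusted p = 0.0486) but not called in perisynaptic muscle (0.17, 0.651). Extrasynaptic Gabpa levels overlapped, at 61.0 to 67.6 CPM in SBMA libraries against 40.2 to 61.8 CPM in controls, where replicate 2 was lowest. Ppargc1a was not called in either region (-1.28, adjusted p = 0.142, and -0.84, 0.197). Its perisynaptic level was 177 to 218 CPM in SBMA libraries, against 78.9 to 772 CPM in controls, and the lowest control was replicate 2, the library in which the ribosomal genes were highest. Gabpa was also lowest in that library, at 24.8 CPM against 48.8 to 60.9 CPM in the other 3 controls.

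For scale, 34 of 36 complex I subunit genes were lower in extrasynaptic SBMA muscle at 26 weeks (median -0.43) and 4 of 36 in perisynaptic muscle (median -0.35). Of the cytosolic ribosomal protein genes 31 of 74 were lower in extrasynaptic (median -0.22) and 1 of 75 in perisynaptic muscle (median -0.15). Messenger RNAs encoded by mitochondrial DNA, which the mitochondrial ribosome translates, could be tested for 7 of 12 genes. In perisynaptic SBMA libraries at 26 weeks mt-Atp6, mt-Co2, mt-Co3, mt-Nd3 and mt-Nd4l were all at 0 CPM. Perisynaptic controls of that age had mt-Co2, mt-Co3, mt-Nd3 and mt-Nd4l at 0 CPM as well. Every other group had 3 or 4 of the 12 genes at 0 CPM, so such zeros occurred in both genotypes. Why was not tested, so the genes tested do not stand for all of these messenger RNAs. Of the 7 tested, mt-Co1, mt-Nd1 and mt-Nd4 were lower in extrasynaptic muscle and mt-Nd6 in perisynaptic muscle. In the list of mitochondrial stress genes 6 of 16 were lower in extrasynaptic muscle, led by the prohibitin genes Phb2 (-0.60, adjusted p = 3.03e-05) and Phb (-0.59, 4.98e-05), while Mthfd2 was higher (0.62, 0.00779). In perisynaptic muscle 3 of 17 were lower and Mthfd2 was higher (0.56, 0.0211).

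**Figure D5:**
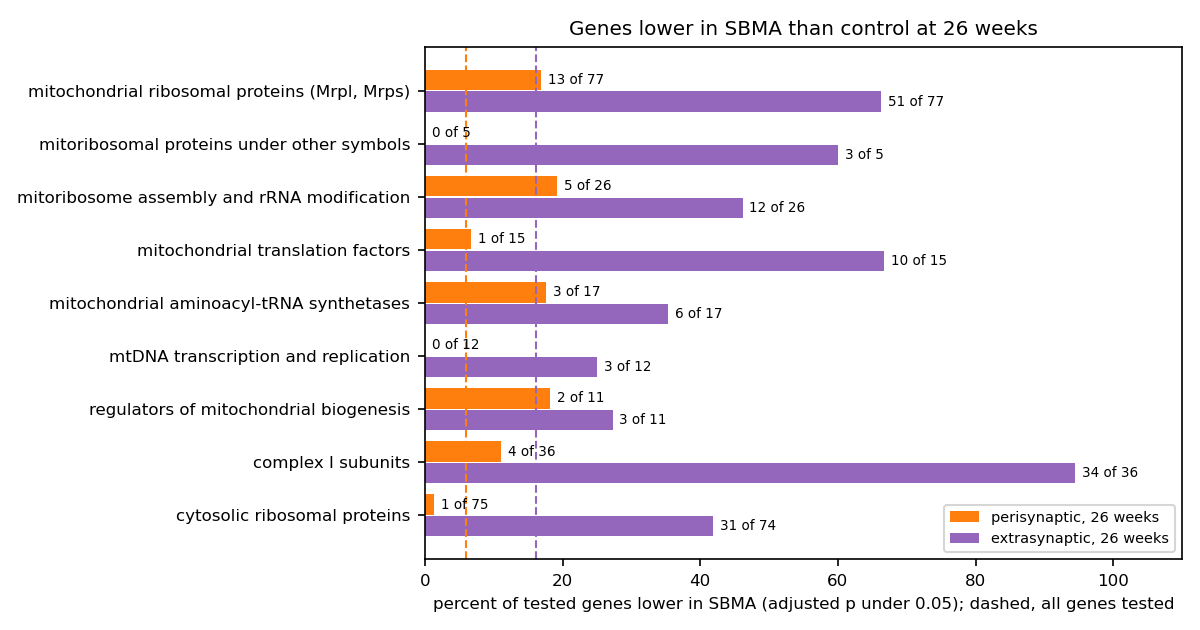
Percent of tested genes lower in SBMA than in control at 26 weeks (adjusted p under 0.05) in the members and in 8 related lists, with counts beside the bars and dashed lines for all genes tested. Among the members 13 of 77 were lower in perisynaptic and 51 of 77 in extrasynaptic muscle; with total-count scaling these became 0 and 15.

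Several marker lists of cell types held lower genes at 26 weeks, but not all lists moved the same way. All 16 fast fibre genes were lower in extrasynaptic SBMA muscle and 14 of 16 in perisynaptic muscle, and their summed level was 46820 to 51740 CPM in extrasynaptic SBMA libraries, against 103800 to 107000 CPM in controls. Slow fibre genes were lower in 7 cases of 12 and higher in 1, in each region. Among 15 macrophage genes 10 were lower in extrasynaptic muscle and 2 in perisynaptic muscle, with summed levels of 220.8 to 252.9 CPM in extrasynaptic SBMA libraries, against 315.1 to 435.3 CPM in controls. Endothelial genes were lower in 5 of 12 and 3 of 12, fibroadipogenic progenitor genes in 6 of 12 and 2 of 12, and mesothelial genes in 5 of 10 and 0 of 10, in extrasynaptic and perisynaptic muscle in that order. For the mesothelial genes in perisynaptic muscle edgeR and DESeq2 called none, with 2 at an unadjusted p under 0.05. Satellite cell genes were higher in 5 of 9 in each region, where 8.04% (perisynaptic) and 16.1% (extrasynaptic) of all genes were higher. The part of these lists in the result was not tested. In whole tissue, fewer cells of a type and less RNA per cell cannot be told apart.

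Of all genes tested at 26 weeks, 8.04% were higher and 5.97% lower in perisynaptic muscle, and 16.1% each way in extrasynaptic muscle. Near these shares, smooth muscle and pericyte genes had 1 higher and 1 lower of 10 in perisynaptic and 2 and 2 in extrasynaptic muscle. Their summed level was 5091 to 6442 CPM in perisynaptic SBMA libraries, against 4431 to 5341 CPM in controls, and 5029 to 6068 CPM in extrasynaptic SBMA libraries, against 4527 to 5032 CPM in controls. Their part in the members' result was not tested either. Adipocyte and erythroid genes had no call by edgeR or DESeq2 and none with an unadjusted p under 0.05 in either region. Lymphocyte and neutrophil genes had none in edgeR, while DESeq2 called 1 lower in extrasynaptic muscle, where 1 had an unadjusted p under 0.05. Of 11 Schwann cell genes tested in perisynaptic muscle 1 was higher, and of 10 in extrasynaptic muscle 1 was higher and 1 lower. These counts also lie near the shares of all genes. Fast and slow fibre genes, the defining genes of the labelled tissue, were abundant in all groups.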

How the data were processed

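RNA was extracted from the diaphragm pieces with on-column DNA digestion and made into stranded mRNA libraries, per the labels' protocols. The authors counted reads per gene with featureCounts (mm10), per the submitters' processing notes, and deposited these raw counts for the 30 libraries. How the counting treated strand, the aligner and the annotation release were not given in the sources used here. Gene IDs were matched to GENCODE vM21, with 33064 of 33076 found.

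Counts were tested with edgeR 4.0.16 (quasi-likelihood, TMM scaling, R 4.3.3) after its expression filter (minimum count 10, minimum total 15). Each region was fitted with its 15 libraries and a mean per genotype and age. Regions were compared in a joint fit of 30 libraries with a term for each animal. Tests were 2-sided, p-values were adjusted by Benjamini and Hochberg over all genes at 0.05, and a standard error (SE) is the log2 fold change divided by the root of F. Every sentence with an adjusted p refers to this test unless DESeq2 (1.42.0) is named. CPM values use TMM-scaled library sizes over all 30 libraries, and a median or fold change is on the log2 scale. Scripts were tested on simulated data.

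Alternatives were other scalings, no filter, DESeq2, each animal left out, the replicate number or animal-number run as a block, and the compared groups alone; fits within runs were added after seeing the data. The members and all lists were chosen with earlier results of these data known. Named were the called members (the 8 largest falls where more were called), the 6 smallest p-values where fewer than 6 were called, a list of fixed members, the 3 highest and lowest per kb, and up to 4 genes per pathway list. The other names among the 13 perisynaptic falls and the 11 falls with age, Mrps10 between regions, and the members named for losing a call or turning with scaling were named after their values were seen. Libraries held 16280873 to 34694446 counts. With 3 or 4 animals a group, the spread between animals limits what can be detected.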

Additional observations from a re-analysis of the deposited data

Results flagged for a closer look

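Among 84 groups of 4 libraries examined in the named members, 2 held a value far from the other 3, and chance alone gives about 5% of groups. The first was Mrpl14 in control perisynaptic muscle at 26 weeks, where replicate 2 had 171.3 CPM against 91.9 to 104 CPM in the other 3 libraries. This is the library in which the summed level of the members was highest. The second was Mrpl35 in perisynaptic SBMA muscle at 26 weeks, where replicate 2 had 34.2 CPM against 32.2 to 32.6 CPM in the others, a small gap in a tight group.

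The difference between SBMA and control in extrasynaptic muscle itself differed between 26 and 15 weeks in 3 members, by the test of that difference in edgeR. It was -0.56 on the log2 scale for Mrpl45 (adjusted p = 0.0260), -0.50 for Mrpl1 (0.00867) and -0.43 for Mrpl18 (0.0382). Over the fits that left out one animal these adjusted p-values reached 0.0788 for Mrpl45 and 0.101 for Mrpl18. With the replicate number as a block all 3 calls were lost, that of Mrpl1 included (adjusted p = 0.108), and with total-count scaling those of Mrpl45 (0.0571) and Mrpl18 (0.0891) were lost.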

How the results depend on the processing

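Scaling turned the members' medians. With total counts alone the median log2 fold change of SBMA over control was 0.0139 and 0.102 in perisynaptic and extrasynaptic muscle at 15 weeks, and 0.0403 and -0.0834 at 26 weeks, while the distance to the median of all genes at 26 weeks was nearly unchanged (-0.20 and -0.27).

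Counts of called members are given with the percent of all genes called in the same fit, and many lie near or below it. In perisynaptic muscle at 26 weeks they were 2 with total counts alone (29.5%), 8 without the filter (6.07%), 6 with only the groups compared (8.68%), 23 with the block of runs (20.5%), and 5 and 0 within runs (7.04% and 5.07%). In extrasynaptic muscle at 26 weeks they were 17 with total counts alone (40.5%) and 19 within the second run (13.6%). At 15 weeks the single extrasynaptic call became 2 with DESeq2 (3.15%) and 2 higher with total counts alone (15.2%), and 0 with RLE size factors, without the filter, with the block of runs, with only the groups compared and within either run (0.0193% to 1.2%). The dependence on age in extrasynaptic muscle gave 6 with DESeq2 (4.2%) and 1 with total counts alone (1.59%). For 26 against 15 weeks in perisynaptic SBMA muscle DESeq2 gave 2 (6.83%), only the groups compared 2 (6.65%) and total counts alone 1 (8.49%). In extrasynaptic SBMA muscle the age count was 7 without the filter (5.4%), 22 with only the groups compared (19.7%) and 5 with total counts alone (15.1%). Between regions at 26 weeks DESeq2 gave 1 (2.76%), no filter 5 (5.54%) and total counts alone 3 (2.6%) in SBMA muscle, and no filter 1 (2.37%) in controls. The cause was not tested.

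Over fits that left out one animal, the number of called members ranged from 7 to 16 in perisynaptic and 41 to 51 in extrasynaptic muscle at 26 weeks, and from 0 to 3 in extrasynaptic muscle at 15 weeks. For the dependence on age in extrasynaptic muscle it ranged from 1 to 6, for age in SBMA muscle from 0 to 3 in perisynaptic and 6 to 16 in extrasynaptic pieces, and between regions in SBMA muscle at 26 weeks from 0 to 10. Of all genes, 10.2% were called in the perisynaptic fit with 7 and 2.62% in the 15-week fit with 3. The fit with 6 for the dependence on age called 1.64% of all genes, and that with 10 between regions 9.91%. For age in SBMA muscle the fits with 3 and 6 called 8.16% and 7.33%. The upper ends of 16, 51 and 16 are given without this share. Of the values for comparisons, 365 kept their direction and side of the threshold or moved little, 66 moved and 3 reversed.

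Replicate numbers did not pair the animals by the rule used: at 26 weeks 3 of 4 same-numbered pairs of SBMA and control libraries deviated together in each region, with mean correlations of 0.288 in perisynaptic and 0.128 in extrasynaptic muscle, and at 15 weeks 0 of 3 did. With the replicate block, 14 members were called in perisynaptic muscle at 26 weeks, including 12 of the 13 falls but neither Mrps30 nor the rise of Mrpl10, and 43 in extrasynaptic muscle. The share of all genes is not given for these counts of 14 and 43, so they are not set against it. The block gave 0 in extrasynaptic muscle at 15 weeks (0.303% of all genes). For the dependence on age in extrasynaptic muscle it also gave 0 (0.187%), and the calls of Mrpl1, Mrpl45 and Mrpl18 were lost. The joint fit without it gave no call between regions.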
